A study of Homo sapiens with 18 samples.

Results

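PGBD5 is a human gene derived from a piggyBac DNA transposase, an enzyme that cuts a mobile DNA element out of one place and inserts it in another. It was chosen by its name and is 1 of 55765 genes in the deposited table. The libraries came from G401, an established cell line of malignant rhabdoid tumour, a childhood cancer defined by loss of the chromatin remodelling subunit SMARCB1. Cultures were exposed for 11 days to 10 µM tazemetostat, which inhibits the histone methyltransferase EZH2, or to the same volume of its solvent DMSO. The WT line carries a CRISPR/Cas9 cut at the AAVS1 safe harbour site and has intact RB1, and E1 and F2 are 2 clones in which both RB1 alleles were disrupted by the same editing method and no RB1 protein was seen on a Western blot, per the series' design text. Each of the 6 groups (WT, E1 and F2, each with DMSO or with tazemetostat) held 3 biological replicates. E1 and F2 are single clones, so the loss of RB1 and other properties of a clone cannot be told apart in a comparison of 1 clone with WT. Whether replicates were separate cultures from the start of treatment is not stated in the labels, and p-values measure the spread between these libraries.

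As background, most piggyBac-derived genes of vertebrates were kept after their mobile elements had lost activity, and PGBD5 is a diverged member of the family. It is expressed mainly in the brain and also in many solid tumours of childhood, rhabdoid tumours among them, where it has been linked to DNA breaks that are sealed by end-joining repair. EZH2 is the catalytic subunit of PRC2, which methylates histone H3 at lysine 27 and so keeps genes silent, often at promoters rich in CG dinucleotides. RB1 restrains E2F transcription factors and with them the genes of DNA replication.

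The promoter of PGBD5 is shown because CG density is the sequence feature most often tied to PRC2. In RefSeq (GRCh38.p14, chr1:230426283-230426582, minus strand) it runs from 250 bases before the start of the gene to 50 bases after it, and capitals mark each CG dinucleotide:
PGBD5 promoter: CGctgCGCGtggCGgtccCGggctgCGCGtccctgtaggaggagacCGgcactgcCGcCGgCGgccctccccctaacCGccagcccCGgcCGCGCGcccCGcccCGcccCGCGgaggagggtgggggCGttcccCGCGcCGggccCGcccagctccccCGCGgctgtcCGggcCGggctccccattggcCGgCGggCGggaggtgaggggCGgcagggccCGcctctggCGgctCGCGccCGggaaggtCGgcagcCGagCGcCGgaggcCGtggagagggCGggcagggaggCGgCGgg
This window held 46 CG dinucleotides, compared with a median of 14 over 27305 promoters of the same length, and 2.83% of those promoters held as many or more. Its GC content was 83.7%, against a median of 58.3%. The GC box GGGCGG, a site of the SP and KLF factors, occurred 6 times on either strand, and 44.6% of all promoters held at least 1. The CCAAT box CCAAT occurred 1 time, as it or its reverse complement did in 35.7% of promoters. None of the E2F motifs TTTCCCGC, TTTGGCGC, TTTCGCGC and TTTGCCGC was found on either strand, and 3.33% of promoters held 1 of them. The CHR motif TTTGAA was not found either (15.4% of promoters). Overlap between matches of different motifs was not examined, and a match or its lack is a description of these bases. The build of the deposited counts, per the submitters' processing notes, is hg19, so no other coordinates are given. In GENCODE v29 no other gene overlaps PGBD5. The start of AL133516.1, a long noncoding RNA on the opposite strand, lies 120 bases from that of PGBD5. Whether the authors' counting used strand is not given in the sources used here.

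Libraries held between 25709489 and 39314860 recovered reads. RB1 transcript, the targeted gene, was at most 1045 normalized counts in a clone library and at least 2300 in a WT library. EZH2 transcript had means of 2478 normalized counts without and 876 with tazemetostat in WT, a log2 change of -1.50, past the threshold. The pairs of means were 3178 and 2989 in E1, and 3207 and 2649 in F2, not past it. The EZH2 response exceeded that in WT by 1.42 in E1 and 1.22 in F2, both past the threshold. SMARCB1 had 0 reads in every library, while VIM, KRT8 and KRT18, which rhabdoid cells express, had at least 27410, 13831 and 8218 normalized counts. The keratins KRT8 and KRT18 rose with tazemetostat as well, 6.77- and 6.38-fold in WT, 6.18- and 7.01-fold in F2 and 2.09- and 2.23-fold in E1, and VIM had ratios of 1.13, 1.61 and 1.39 in these lines, under the limit. On the log2 scale the rise of KRT8 in E1 was 0.89 without E1 DMSO replicate 3 and 0.95 with upper-quartile scaling, under the limit of 1. Of 6 markers of blood, endothelial and epithelial cells, PECAM1 was not matched in the table, PTPRC and CD3E had at most 2 reads, LYZ at most 6, EPCAM at most 19 and CDH5 at most 29 reads in a library. CDH5 had a mean of 0.307 normalized counts over the DMSO libraries and 15.2 over the tazemetostat libraries, and PTPRC, CD3E and LYZ stayed under 2 in both means. EPCAM went the other way, with means of 13.2 and 7.20, and passed as lower in E1 (-1.37 on the log2 scale) and F2 (-1.14) but not in WT (-0.29). Both calls were lost when 5 instead of 1 was added to each value (-0.79 and -0.83). The call in E1 was also lost without E1 tazemetostat replicate 3 (-0.87), and that in F2 without F2 tazemetostat replicate 2 (-0.83). The part of other cells, or of a change in cell state, in the results was not tested.

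PGBD5 transcript was present in WT and F2 without the inhibitor, nearly absent in E1, and high in all 3 lines after tazemetostat. In WT with DMSO the 3 libraries held 128, 133 and 129 normalized counts, from 147, 141 and 136 reads. In F2 with DMSO they held 68.6, 97.5 and 86.2, from 67, 94 and 71 reads. In E1 with DMSO the values were 0.893, 2.90 and 3.90, from 1, 3 and 4 reads. The E1 libraries were thus far below all others, and the F2 libraries lay below those of WT without overlap.

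With tazemetostat the WT libraries held 838, 851 and 867 normalized counts. Those of E1 held 970, 1042 and 986. Those of F2 held 730, 703 and 744. The lowest library with the inhibitor, at 703, was above the highest one without it, at 133. Group means, from high to low, were 999 ± 37.5 (SD, n = 3) in E1 with tazemetostat, 852 ± 14.7 in WT with tazemetostat, 726 ± 20.5 in F2 with tazemetostat, 130 ± 2.5 in WT with DMSO, 84.1 ± 14.5 in F2 with DMSO and 2.56 ± 1.53 in E1 with DMSO. No 2 neighbours in this order overlapped in their libraries. In bulk RNA, more cells with the transcript and more transcript per cell cannot be told apart.

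**Figure D1:**
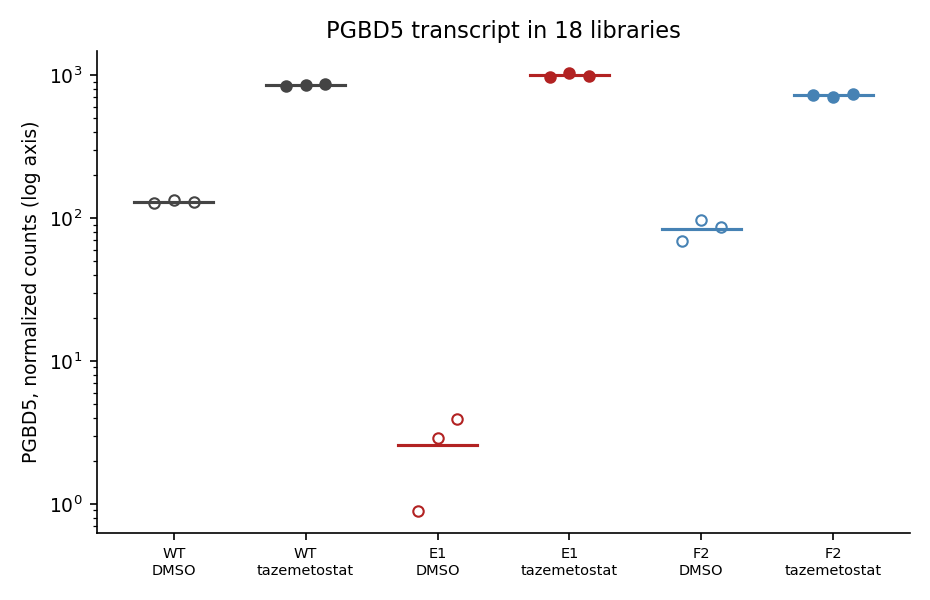
PGBD5 in each of the 18 libraries, as normalized counts on a log axis, with open points for DMSO, filled points for tazemetostat and a line at each group mean (3 libraries a group). The E1 libraries with DMSO sit between 0.893 and 3.90, and all tazemetostat libraries sit between 703 and 1042.

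The first comparison asked whether EZH2 inhibition changed PGBD5 in each line, and it rose in all 3. The mean rose 6.55-fold in WT, which is 2.70 ± 0.23 on the log2 scale (SE; adjusted p 5.0e-09 by limma over 16154 tested genes). It rose 8.63-fold in F2, by 3.11 ± 0.23 (adjusted p 7.7e-10). In E1 it rose by 8.24 ± 0.23 (adjusted p 4.5e-16) after 1 was added to each value, an addition that makes the change of so low a gene look smaller. The SE is the same in each line because 1 spread was fitted to all 6 groups. The SD of the normalized counts was 1.7% of the mean in WT with tazemetostat and 59.7% in E1 with DMSO. Pooled over libraries, the reads of E1 were 3035 with tazemetostat and 8 with DMSO, a ratio of 398 after scaling (95% Clopper-Pearson interval 202 to 922, counting error only). The same intervals were 5.90 to 7.27 in WT, from 2464 and 424 reads, and 7.56 to 9.95 in F2, from 2253 and 232 reads.

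A gene counted as past the threshold when its adjusted p was under 0.05 and its log2 change at least 1 in size. By this rule 14.5% (WT), 11.3% (E1) and 13.3% (F2) of tested genes were higher with tazemetostat. Libraries of treated and untreated cultures did not overlap for 72.2%, 46.7% and 62.4% of tested genes. PGBD5 had the 1234th largest rise in WT, the 1227th in F2 and the 159th in E1. Exchanging the 6 libraries of a line in every way (exact permutation test, two-sided) gave p = 0.1 in each line, the smallest value this design allows.

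The second comparison set the clones beside WT without the inhibitor, and PGBD5 was lower in E1 than in either other line. The difference between E1 and WT was -5.31 ± 0.23 (SE) on the log2 scale (limma adjusted p 3.4e-12). Pooled reads put WT 51.7-fold above E1 (95% counting interval 26.0 to 121). Of tested genes, 2.69% were lower in E1 than in WT past the threshold and 31.1% had libraries that did not overlap, and 18 genes had a larger fall than PGBD5. Between E1 and F2 the difference was -4.67 ± 0.23 (adjusted p 1.1e-11), where 3.52% of tested genes were lower in E1 and 38.7% did not overlap.

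PGBD5 in F2 was 0.647 times its level in WT with DMSO, and this difference was not past the threshold. Its log2 value was -0.64 (95% interval -1.11 to -0.16; limma adjusted p 0.055, and 0.039 when same-numbered replicates were blocked, still under the fold limit), with no overlap between the libraries of the lines, as for 38.6% of tested genes. The RB1-disrupted clones therefore had different values of PGBD5 without the inhibitor, with 2.56 ± 1.53 normalized counts in E1 and 84.1 ± 14.5 in F2.

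With tazemetostat the 3 lines were much closer to each other. The highest line mean was 1.38 times the lowest, compared with 50.7 times with DMSO. E1 exceeded WT by 0.23 (95% interval -0.25 to 0.70; limma adjusted p 0.42), F2 differed from WT by -0.23 (-0.71 to 0.24; adjusted p 0.41), and E1 exceeded F2 by 0.46 (-0.01 to 0.94; adjusted p 0.13). None passed the threshold. The libraries did not overlap in any of these comparisons, as was the case for 61.4%, 67.5% and 52.6% of tested genes. With only the groups compared in the fit, the adjusted p were 0.011, 0.0037 and 8.8e-05, at the same log2 differences. For E1 against F2 the SE was then 0.07, beside 0.23 with the spread shared by all groups, E1 with DMSO among them. The width of the intervals above thus rests on that shared spread.

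The third comparison asked whether the response to tazemetostat differed between lines. That of PGBD5 was higher in E1 than in WT by 5.54 ± 0.32 (SE; limma adjusted p 9.1e-10), and than in F2 by 5.13 ± 0.32 (adjusted p 2.2e-09). It was the 3rd highest response difference of 16154 genes against WT and the 7th highest against F2. Past the threshold in this direction were 4.79% and 1.78% of tested genes. The response in F2 exceeded that in WT by 0.41 (95% interval -0.27 to 1.08; adjusted p 0.38), which did not pass. These comparisons share libraries, since each line's DMSO and tazemetostat values enter several of them. A response difference is the gap between 2 lines with tazemetostat minus their gap with DMSO. For E1 against WT these gaps were 0.23 and -5.31, and for E1 against F2 0.46 and -4.67. Most of each difference is thus the low level of E1 with DMSO, which rests on 8 reads.

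**Figure D2:**
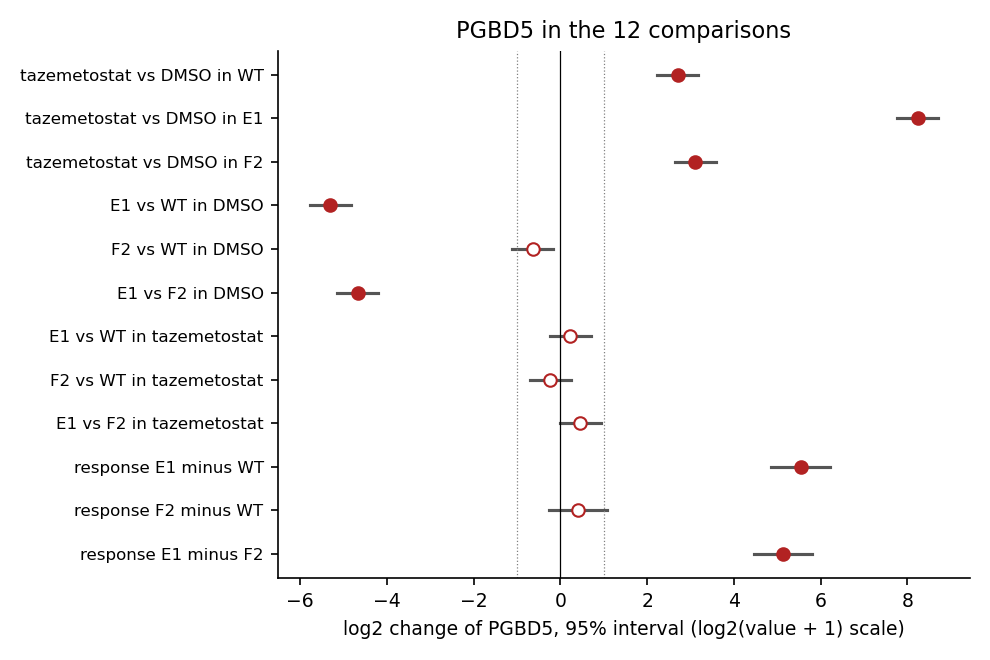
Log2 change of PGBD5 in each of the 12 comparisons with its 95% interval from limma. Filled points are past the threshold, dotted lines mark a log2 change of 1 in either direction, and the changes reach 8.24 for tazemetostat in E1 and -5.31 for E1 against WT with DMSO.

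The genes around PGBD5 on chromosome 1 are described beside it. Of the 6 nearest protein-coding genes on each side in RefSeq, 11 were in the table and 9 were tested. GALNT2, which starts mucin-type O-glycosylation and is the nearest gene in the table on one side, rose with tazemetostat in all 3 lines. Its normalized count in WT was 1183 ± 106 without and 11128 ± 466 with the inhibitor (SD, n = 3), a 9.41-fold rise. The values of E1 were 706 ± 68 and 9177 ± 131, and those of F2 579 ± 33 and 9969 ± 345, which are rises of 13.0-fold and 17.2-fold. On the log2 scale WT changed by 3.24, E1 by 3.70 and F2 by 4.10. The promoter entry of GALNT2 held 51 CG dinucleotides. Entries of tested neighbours that did not pass held 45 (TAF5L), 39 (ABCB10), 29 (COG2), 28 (NUP133), 26 (ARV1), 24 (TTC13) and 3 (C1orf198). Each value is for the first promoter entry of a gene, and URB2 had no value in the set used.

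The other 8 tested neighbours had log2 changes with tazemetostat between -0.49 and 0.39, and none was past the threshold in any line. COG2, a subunit of a Golgi tethering complex and the nearest gene on the other side, had normalized counts of 1702 ± 103 without and 1814 ± 27 with the inhibitor in WT (SD, n = 3). The pairs of means were 1762 ± 133 and 1665 ± 94 for E1, and 1533 ± 126 and 1588 ± 38 for F2. AGT, the precursor of angiotensin, and CAPN9, a calpain protease, had at most 10 and 3 reads in a library and were not tested. AGT nevertheless had higher means with tazemetostat, 0.582 and 9.06 normalized counts in WT (at least 3.28-fold, against a floor of 3 reads a library), 0 and 6.13 in F2 (at least 1.87-fold) and 0.322 and 2.23 in E1, where the libraries overlapped. The 9 tested neighbours had medians of 0.06 (WT), 0.08 (E1) and 0.16 (F2), beside 0.03, 0.02 and 0.02 for all tested genes.

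Without the inhibitor the 9 tested neighbours differed between E1 and WT by -0.74 (GALNT2) to 0.32 (ABCB10), with a median of 0.05, and none passed the threshold, beside -5.31 for PGBD5. The copy number of the segment was not tested. In F2, GALNT2 differed from WT by -1.03, past the threshold (-0.98 without F2 DMSO replicate 3 and -0.95 without WT DMSO replicate 2, which are not past it), and the others lay between -0.30 and 0.12. The response of GALNT2 in E1 exceeded that in WT by 0.47, beside 5.54 for PGBD5.

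**Figure D3:**
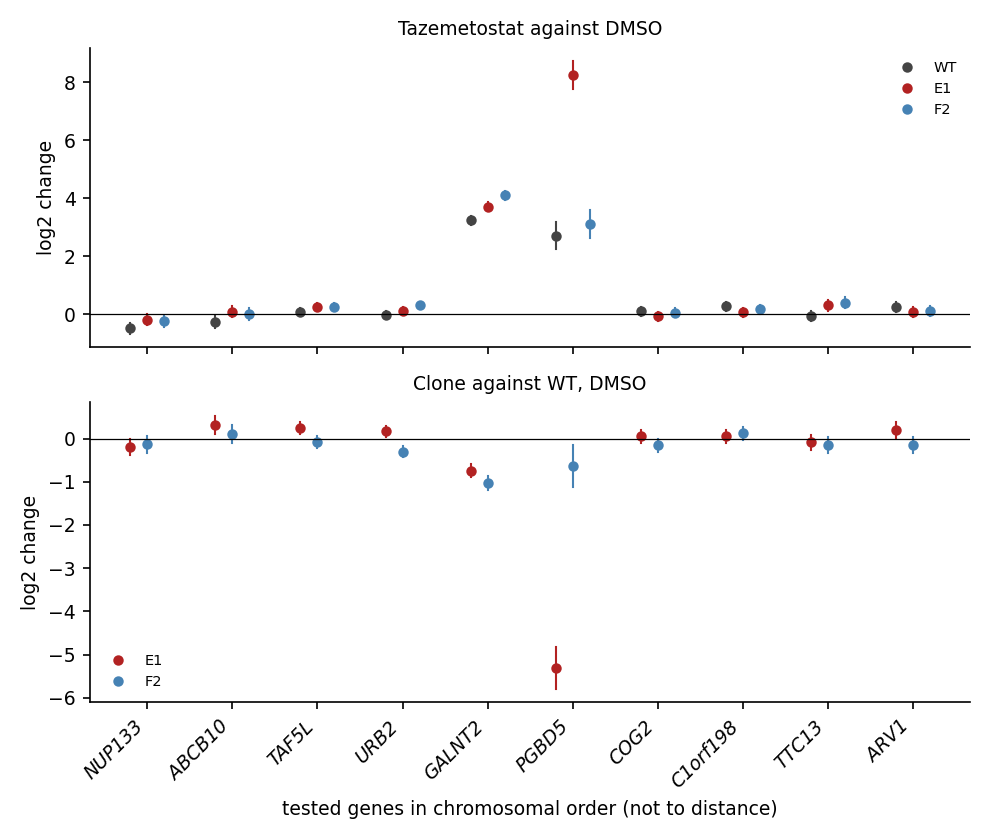
Log2 changes, with 95% intervals, of PGBD5 and the 9 tested neighbours in their order on chromosome 1, with tazemetostat in each line (top) and in each clone against WT with DMSO (bottom). GALNT2 and PGBD5 stand above 2 in all lines at the top, and PGBD5 in E1 stands alone at -5.31 at the bottom.

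Of the other piggyBac-derived genes PGBD1, PGBD2, PGBD3 and PGBD4, 3 were tested and none was past the threshold in any of the 12 comparisons. With tazemetostat, 14.5% of all tested genes were higher and 6.77% lower in WT, 11.3% and 3.78% in E1, and 13.3% and 3.71% in F2, so a count of 0 among 3 is near the background. PGBD1, which also carries a SCAN domain, had a mean normalized count of 517 ± 8 (SD, n = 3) in untreated WT and 339 to 439 in the libraries with tazemetostat. The pairs of means were 494 ± 35 and 452 ± 16 for E1, and 611 ± 14 and 523 ± 9 for F2. Its treated libraries lay below the untreated ones in WT and F2, where libraries did not overlap for 72.2% and 62.4% of tested genes. They overlapped in E1. The log2 changes of PGBD1 were -0.41 (WT), -0.23 (F2) and -0.12 (E1).

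PGBD2 changed by -0.34 (WT), 0.11 (E1) and 0.18 (F2) on the log2 scale, under the limit. PGBD4 went from 126 ± 20.5 to 173 ± 7.6 normalized counts in E1, a log2 change of 0.47, and changed by -0.03 in WT and 0.04 in F2. PGBD3 had at most 6 reads in a library and was not tested. It lies within ERCC6 in RefSeq, and reads that the 2 genes share may be counted for either or neither.

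**Figure D4:**
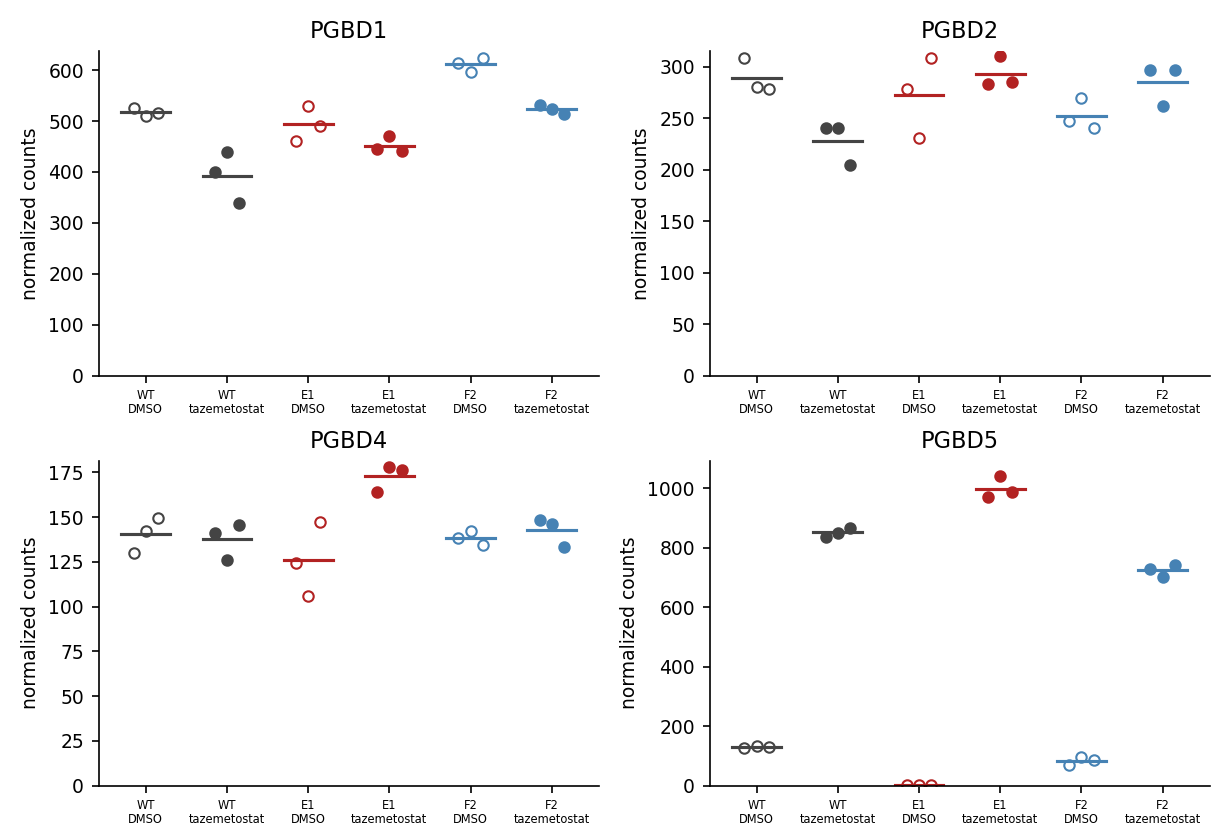
PGBD1, PGBD2, PGBD4 and PGBD5 in each of the 18 libraries, as normalized counts on linear axes that start at 0, with open points for DMSO, filled points for tazemetostat and lines at group means. PGBD5 moved from a mean of 130 to 852 in WT, while PGBD1 libraries there lay between 339 and 526.

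Other human genes derived from DNA transposases were followed as a list of 31, of which 28 were tested. In WT 1 rose and 2 fell with tazemetostat (14.5% and 6.77% of all tested genes did). In E1 2 rose and 4 fell (11.3% and 3.78%), and in F2 1 rose and 3 fell (13.3% and 3.71%). The list's median log2 changes were -0.06, -0.07 and 0.02. RAG1 and RAG2, which together cut DNA at antigen receptor genes in lymphocytes, are adjacent genes and were both low in E1. RAG1 with DMSO held 39.0 ± 8.5 normalized counts in WT, 40.3 ± 4.0 in F2 and 8.16 ± 4.33 in E1 (SD, n = 3), a difference of -2.22 between E1 and WT.

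RAG1 rose with tazemetostat in each line, to 216 ± 41 in WT, 147 ± 14 in F2 and 75.1 ± 2.0 in E1. Its log2 changes were 2.45, 1.84 and 3.17. RAG2 with DMSO held 82.9 ± 3.8 in WT, 113 ± 9 in F2 and 0.325 ± 0.562 in E1, where no library had more than 1 read. RAG2 fell with tazemetostat to 29.7 ± 8.1 in WT and 52.9 ± 15.4 in F2 (log2 changes of -1.48 and -1.11, the latter -0.98 and under the limit without F2 tazemetostat replicate 1), and was 3.30 ± 0.53 in E1, from 3 or 4 reads a library. RAG1 and RAG2 are the 2 that passed as higher in E1, and RAG2 did not pass at a pseudocount of 5 (0.64). ZBED3 and TIGD2 were the other members named by the rule for this list. ZBED3 fell in each, by 1.39, 1.08 and 1.10 on the log2 scale for WT, E1 and F2. TIGD2 fell by 1.15 in E1 and 1.38 in F2 and had a log2 change of -0.83 in WT.

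Of 16 end-joining genes, which seal DNA double-strand breaks, 14 were tested, and with tazemetostat WT had 1 higher and 1 lower, E1 had 1 higher and F2 had 2 higher. These counts are near the shares of all tested genes (14.5% higher and 6.77% lower in WT, 11.3% and 3.78% in E1, 13.3% and 3.71% in F2). The medians for WT, E1 and F2 were -0.48, -0.11 and -0.10, beside 0.03, 0.02 and 0.02 for all tested genes. APLF, a scaffold that recruits XRCC4 and LIG4, rose in all 3 lines. Its normalized counts went from 43.5 ± 4.4 to 279 ± 14 in WT, from 20.4 ± 0.1 to 278 ± 30 in E1 and from 47.5 ± 4.4 to 362 ± 8 in F2 (SD, n = 3), with log2 changes of 2.66, 3.70 and 2.91.

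APLF differed by -1.05 between E1 and WT with DMSO, past the threshold (-0.99 and under the limit without WT DMSO replicate 3). XRCC4, the partner of the ligase LIG4, rose by 1.07 in F2 and had values of 0.93 (WT) and 0.88 (E1), under the limit of 1. Without F2 DMSO replicate 3 its value in F2 was 0.99, which leaves 1 gene of the list higher there, and without WT tazemetostat replicate 3 its value in WT was 1.03, which makes 2 there. XRCC4 was also higher in E1 than in WT with DMSO, by 1.41. POLQ, the polymerase of microhomology-mediated joining, fell by 1.11 in WT and had values of 0.03 (E1) and -0.07 (F2).

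Of 22 genes that signal double-strand breaks or stalled replication forks, all tested, 3 fell in WT with tazemetostat, and none was past the threshold in E1 or F2. Of all tested genes 6.77% (WT), 3.78% (E1) and 3.71% (F2) fell. The list's medians were -0.43, 0.04 and 0.00 for WT, E1 and F2, beside 0.03, 0.02 and 0.02 for all tested genes. The 3 were CLSPN, TIMELESS and CHEK1, which act in the ATR checkpoint at stalled replication forks. CLSPN had log2 changes of -1.28, 0.03 and 0.05 for WT, E1 and F2, TIMELESS of -1.25, 0.03 and -0.18, and CHEK1 of -1.09, -0.08 and -0.14.

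PGBD5 is a gene of neural tissue in the body, and 18 neuronal genes were followed beside it. Of these 8 were tested. With tazemetostat WT had 6 higher, E1 had 4 and F2 had 6, and none was lower past the threshold. Of all tested genes 14.5%, 11.3% and 13.3% were higher and 6.77%, 3.78% and 3.71% lower. The lowest log2 changes in the list were -0.51 (WT), -0.77 (E1) and -0.69 (F2), and without the fold limit 1 member was lower in each line. The members described below were named for the largest changes. SYP, ENO2, TUBB3 and L1CAM, tested at means of 261, 1114, 7609 and 13132 over all libraries, are not among them. Their medians for WT, E1 and F2 were 2.56, 1.88 and 3.13, beside 0.03, 0.02 and 0.02 for all tested genes. A gene under a mean of 10 was not tested, so the tested members include genes that passed the filter only through their treated libraries. NCAM1, a neural cell adhesion molecule, had at most 1 read in any DMSO library and was at least 51.0-fold (WT), 107-fold (E1) and 141-fold (F2) higher with tazemetostat, against a floor of 3 reads a library.

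MAP2, a microtubule protein of dendrites, had normalized counts that went from 20.1 ± 10.1 to 1684 ± 106 in WT, and from 5.46 ± 0.53 to 1107 ± 48 in F2 (SD, n = 3). In E1 it reached 1045 ± 63, and the libraries with DMSO held 1.79, 0.965 and 25.3, so that replicate 3 sets most of their mean. CHGA, a protein of secretory granules, went from 3.08 ± 0.61 to 157 ± 12 in WT, from 11.3 ± 3.4 to 102 ± 13 in E1 and from 3.67 ± 2.28 to 163 ± 20 in F2. SYT1, a calcium sensor of synaptic vesicles, reached 55.3 ± 9.3 in WT, 22.3 ± 4.0 in E1 and 17.1 ± 2.3 in F2. With DMSO, SYT1 was lower in both clones than in WT, by -2.28 for E1 and -2.27 for F2 (-0.94 and -0.93, under the limit, at a pseudocount of 5). CHGA was higher in E1 than in WT, by 1.56 (0.99, under the limit, at that pseudocount). SNAP25, STMN2, DCX and ELAVL4, which mark neurons, had means between 0.052 and 2.67 over all libraries.

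The genes whose profile over the 18 libraries lay closest to that of PGBD5 were found by the root mean square difference of mean-centred log2(value + 1) profiles among 12983 genes with a mean of at least 50. The closest was GATA6, a zinc finger transcription factor of endoderm and heart, at 0.59, followed by OSBPL6, a lipid-binding protein, at 0.69. The next were GABBR1, a subunit of the GABA-B receptor (0.75), PCDH9, a protocadherin (0.86), AC019181.2, a transcript with a clone-based name (0.88), LRIG3, a membrane protein with leucine-rich repeats (0.90), NRP1, a receptor for semaphorins and VEGF (0.91), and SLIT2, an axon guidance ligand (0.92). The median over all these candidate genes was 2.90. The 8 genes were chosen for this likeness, so their values are a description.

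GATA6 with DMSO held 29.7, 22.6 and 17.0 normalized counts in WT, 14.3, 21.8 and 17.0 in F2, and had at most 1 read in a library of E1. With tazemetostat it held 376 to 446 in WT, 233 to 271 in F2 and 218 to 226 in E1. OSBPL6 with DMSO held 41.6 to 51.8 in WT, 43.0 to 57.0 in F2 and 1.79 to 4.87 in E1, and with tazemetostat 554 to 589, 871 to 951 and 970 to 1033. Both were lowest in E1 without the inhibitor. With it, GATA6 was lowest and OSBPL6 highest in E1. Of the other 6, NRP1, SLIT2 and AC019181.2 had at most 2 reads in any E1 library with DMSO. The set of 27305 promoters keeps the first entry of each gene, if it has the same length as that of PGBD5. In this set 6 of the 8 genes had a value, with 20 to 41 CG dinucleotides, beside 46 for PGBD5.

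The same set of calls in all 12 comparisons as PGBD5 was found in 20 other tested genes. GATA6 and OSBPL6 were among them, and the others of the 8 were not. The remaining genes, in order of likeness, were SLC4A4, C3orf58, CHST2, ARID5B, DNAH7, FAM20C, MYO1E, HIPK2, ZHX2, PAM, HOXD8, ZNF503, HOXD9, CCNJL, RDH10 and ZNF704, followed by NOL4 and STMN4, whose means were 32.7 and 11.7. This count was taken after the values of PGBD5 had been seen.

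**Figure D5:**
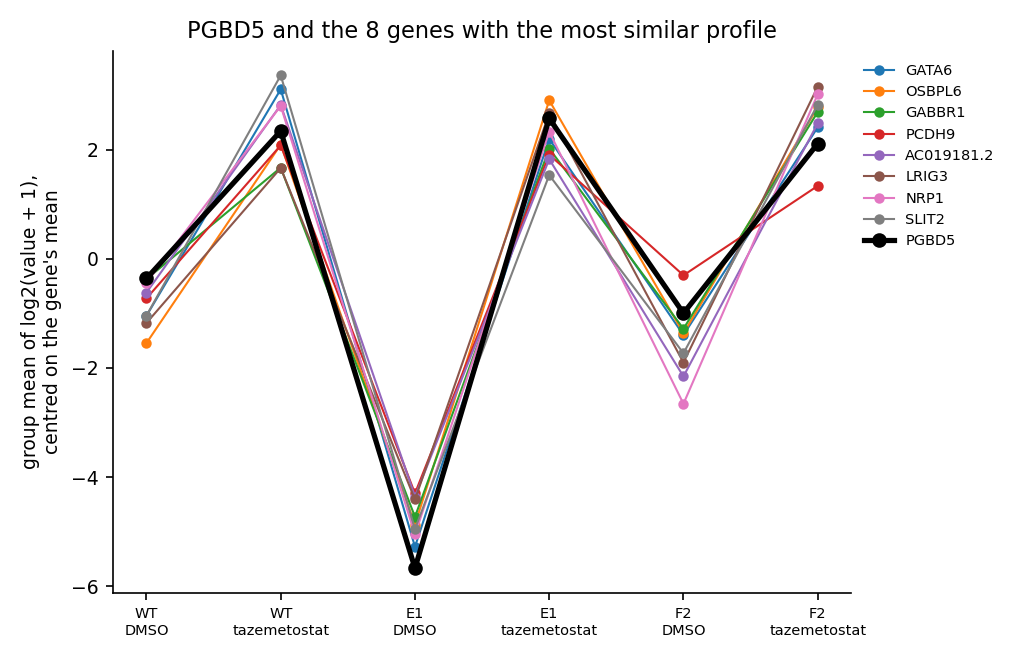
Group means of log2(value + 1), centred on each gene's mean, for PGBD5 (thick black line) and the 8 genes with the most similar profile over 18 libraries. All 9 lines are lowest in E1 with DMSO and higher with tazemetostat than with DMSO in each line of cells.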

How the data were processed

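The authors deposited 1 table of 55765 gene symbols in 18 libraries, in which each value is a signal: the count of a gene after division by the size factor of its library. Poly(A) RNA was sequenced with a stranded kit, per the labels' protocols. Trim Galore 0.4.4, STAR 2.6.0a, HTSeq and DESeq2 are named in the submitters' processing notes. The annotation and strand setting are not given in the sources used here. Multiplied by its size factor, 100% of values per library were whole reads (within 1e-06 of the value). Genes with a mean of at least 10 (16154) were tested on log2(value + 1) with limma 3.58.1 (R 4.3.3), all 6 group means in 1 fit, with Benjamini-Hochberg adjustment within each of 12 contrasts. Alternatives included edgeR 4.0.16 and DESeq2 1.42.0 on recovered reads. The fit was tested on simulated data. Replicate numbers were taken to pair libraries where the deviations of all 3 same-numbered pairs correlated over 0.1, which held for F2 against WT with DMSO alone (0.18, 0.11 and 0.38). PGBD5, the gene lists and the tests were chosen with earlier results of these data known. From each list, up to 4 members with the largest change past the threshold with tazemetostat were named, plus those past it in all 3 lines. Intervals and floors of 3 reads cover counting error only. Figures used matplotlib 3.10.9.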

Additional observations from a re-analysis of the deposited data

Results flagged for a closer look

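These results drew attention because the difference in response to tazemetostat between lines was itself tested and was past the threshold. For PGBD5 the response in E1 exceeded that in WT by 5.54 and that in F2 by 5.13 on the log2 scale. Most of each difference was the gap of E1 with DMSO, -5.31 from WT and -4.67 from F2.

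Some of the differences given below lost their call when 1 library was left out. For E1 against WT these were APLF (0.98 without E1 tazemetostat replicate 3 or WT DMSO replicate 3) and CHEK1 (0.93 to 0.99 without E1 DMSO replicate 1 or 2, E1 tazemetostat replicate 2 or 3, WT DMSO replicate 1 or WT tazemetostat replicate 3). For F2 against WT they were POLQ (0.99 without F2 DMSO replicate 2) and AC019181.2 (0.97 without WT DMSO replicate 1). For E1 against F2 it was RAG1 (0.94 without E1 DMSO replicate 3, and 1.31 and 1.25, at adjusted p of 0.051 and 0.059 by limma, without E1 or F2 tazemetostat replicate 3). At a pseudocount of 5 the differences of AC019181.2, those of SLIT2, that of NRP1 between E1 and F2, that of APLF and that of RAG1 were no longer past the threshold, and those of NCAM1 were not past it with edgeR or DESeq2.

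The 8 genes with the profile most like that of PGBD5 were chosen for it, so their differences are no independent support. Against WT, the response in E1 differed by 3.32 for GATA6, 4.14 for OSBPL6, 4.71 for GABBR1, 3.41 for PCDH9, 2.75 for AC019181.2, 4.24 for LRIG3, 4.14 for NRP1 and 2.08 for SLIT2. Against F2 it differed by 3.67 for GATA6, 3.63 for OSBPL6, 2.78 for GABBR1, 4.57 for PCDH9, 1.55 for AC019181.2, 2.02 for LRIG3, 1.71 for NRP1 and 1.93 for SLIT2. The response in F2 differed from that in WT by 1.93 for GABBR1, -1.17 for PCDH9, 1.20 for AC019181.2, 2.21 for LRIG3 and 2.43 for NRP1.

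Among transposase-derived genes, the response of RAG2 in E1 differed by 3.25 from WT and by 2.88 from F2, and that of RAG1 by 1.33 from F2. Among repair and signalling genes, the response in E1 exceeded that in WT by 1.04 for APLF, 1.14 for POLQ, 1.31 for CLSPN, 1.28 for TIMELESS and 1.01 for CHEK1, and the response in F2 did so by 1.04 for POLQ, 1.32 for CLSPN and 1.07 for TIMELESS. Among neuronal genes, the response of CHGA in E1 differed by -2.18 from WT and by -2.18 from F2. NCAM1 differed by 1.11 in E1 and by 1.37 in F2 from WT, and had at most 1 read in any DMSO library.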

How the results depend on the processing

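Each of the 12 log2 changes of PGBD5 was recomputed under 30 alternatives, and in 360 of 360 values it kept its direction and its side of the threshold. Changes that stay under the limit of 1 keep their side whatever the p-value, save where the limit is dropped. For E1 against F2 with tazemetostat the adjusted p ran from 6.8e-07 (DESeq2) to 0.43 (limma with no filter on low values). The pseudocount moved the changes that involve E1 with DMSO most: that with tazemetostat was 8.51 at a pseudocount of 0.5 and 7.07 at 5, beside 8.63 with DESeq2 and 8.56 with edgeR. With 1 library left out it was 7.84 to 8.52. A block on replicate number gave PGBD5 changes with tazemetostat of 2.70 (WT), 8.24 (E1) and 3.11 (F2), at adjusted p of 5.3e-09, 3.2e-15 and 9.5e-10 by limma. For F2 against WT with DMSO the block gave an adjusted p of 0.039 at -0.64, under the fold limit, with a range of 9.8e-05 to 0.29 over all alternatives without a library left out. Same-numbered libraries had correlated deviations over 0.1 in all 3 pairs of 1 comparison of 9 (F2 against WT with DMSO; all values -0.24 to 0.38). By this measure the numbers were taken to pair the libraries in that comparison alone. Tazemetostat against DMSO in WT was positive in all 3 pairs too (0.096, 0.050 and 0.315). Libraries of different numbers were not compared, so the measure cannot settle whether any comparison is paired. Without the fold limit, list counts with tazemetostat in WT were 7 higher and 11 lower of the transposase-derived genes (1 and 2 with it), 3 and 10 of the end-joining genes (1 and 1), 3 and 13 of the signalling genes (0 and 3), 3 and 2 of the neighbours (1 and 0) and 0 and 2 of the piggyBac-derived genes (0 and 0). In E1 the transposase-derived count rose to 8 higher (2 with the limit), the end-joining one to 3 higher and 4 lower (1 and 0) and the signalling one to 4 and 3 (0 and 0). In F2 these were 5 and 8 (1 and 3), 3 lower (0) and 4 and 4 (0 and 0). Of the neighbours, 3 were then higher in E1 (1), and 4 higher and 1 lower in F2 (1 and 0). Testing genes with a mean of at least 1 raised the neuronal counts to 12, 9 and 13 higher in WT, E1 and F2, from 6, 4 and 6. With no filter the neuronal counts were 12, 8 and 13. All other list counts that moved by more than 1.5 times moved by 1 gene. The response difference of NCAM1 between F2 and WT turned from 1.37 to -0.26 with edgeR; both lines had at most 1 read per DMSO library. At 8 reads over 3 libraries, the level of PGBD5 in E1 with DMSO is limited by counting.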
